A study of Mus musculus with 12 samples.

Results

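The clustered histone genes encode the 5 kinds of histone that package newly copied DNA: the linker histone H1 and the core histones H2A, H2B, H3 and H4. They were taken as all rows annotated protein coding whose symbol was H1f1 to H1f6 or an H2ac, H2bc, H3c or H4c name followed by a number, which gave 68 genes among 78275 gene IDs: 6 H1, 18 H2A, 19 H2B, 12 H3 and 13 H4 genes. In the RefSeq annotation 54 of them lie on chromosome 13, 10 on chromosome 3, 3 on chromosome 11 and 1 on chromosome 6. 64 of the 68 had at least 1 estimated count in some library and 4 (H2ac1, H2bc1, H2bc24 and H4c17) had none.

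The RNA came from C2C12, an established line of mouse myoblasts that stops dividing and fuses into myotubes when serum is lowered, and was purified on poly-T beads before 12 libraries were made with a kit that does not keep strand. Induced knockdown cells were transfected with siRNA that targets Zfp143, which encodes ZNF143, a promoter-binding zinc finger protein, and after 24 hours spent 5 days in differentiation medium holding 1% horse serum. Induced control cells went through the same 5 days after a non-targeting siRNA. Uninduced knockdown and uninduced control cells received the same siRNAs in growth medium with 10% fetal bovine serum, and were harvested 24 hours after transfection. Each of the 4 groups has 3 libraries and the labels name 1 batch. Nothing in the labels says whether replicates are separate cultures, and the p-values therefore reflect only how much these libraries vary. Induced and uninduced cells differ in serum, in time after transfection and in state at once, so these cannot be told apart.

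In dividing cells these genes are switched on as DNA replication begins, with NPAT as a coactivator, and their mRNAs do not normally end in a poly(A) tail. The message is cut just after a short stem-loop, which is held by the stem-loop binding protein SLBP, and it is degraded when replication stops. Some of these genes also give longer RNAs that run past the stem-loop to a downstream polyadenylation signal, a form described in differentiating cells. Capture on poly-T beads therefore measures the tailed form, together with whatever untailed RNA carries over, and says little about the total histone message.

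A stem-loop was found after the stop codon in 46 of the 68 members, read from GENCODE M21 transcripts (GRCm38). In 13 other members the longest annotated transcript ends at the stop codon, and in 1 no coding sequence is annotated, so none could be found there. The stem-loops are shown because they mark where the untailed message ends. The capitals mark the stem-loop with its stem of 6 base pairs and loop of 4 bases, and the lower case letters are the 5 bases on each side. The 4 shown come from members that changed or that stand for another stem:
H1f2: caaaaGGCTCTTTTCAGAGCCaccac
H2ac25: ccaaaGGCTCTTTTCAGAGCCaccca
H2bc12: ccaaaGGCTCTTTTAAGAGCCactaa
H4c18: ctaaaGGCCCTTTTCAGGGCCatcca
H1f2 and H2ac25 share their capital letters with 24 other members of the H1, H2A, H2B and H3 types. The H4c18 letters are shared by 7 H4 genes, and those of H2bc12 by 6 members. Of the other stem-loops, 2 kinds are held by 2 members each and 3 kinds by 1 member each.

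The annotated transcripts of most members with enough counts to be tested ran well past this point. Of the 20 tested members 16 had a stem-loop, 13 of them with more than 100 annotated bases after it, and the median was 996.5 bases. Of the 48 members not tested, 29 had one in their longest transcript, 10 of them with more than 100 bases after it, and the median was 46 bases. H1f2 had 840 annotated bases after its stem-loop, H2ac25 had 1643 and H1f3 had 4884. H2ac18 had 35 bases, H4c18 had 31 and H2bc12 had 30, and all of these were tested. H2bc4, H2bc21, H2bc23 and H1f5 were tested and no stem-loop was found in their annotated transcripts. That of H1f5 ends at the stop codon, so none could be found. The annotation of a long 3' end is itself made from sequenced RNA, so it is not independent of which genes give tailed transcripts. The filter also uses counts that are not divided by length, so a long annotated end itself helps a member to be tested. Per length, as the deposited TPM averaged over the 12 libraries, H1f2 had 113, H1f3 had 0.682 and H2ac18, with its short end, had 30.8. Levels are given as CPM, a gene's share of a library's counts scaled up to a common total, with library sizes adjusted by TMM factors that even out composition between libraries.

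**Figure D1:**
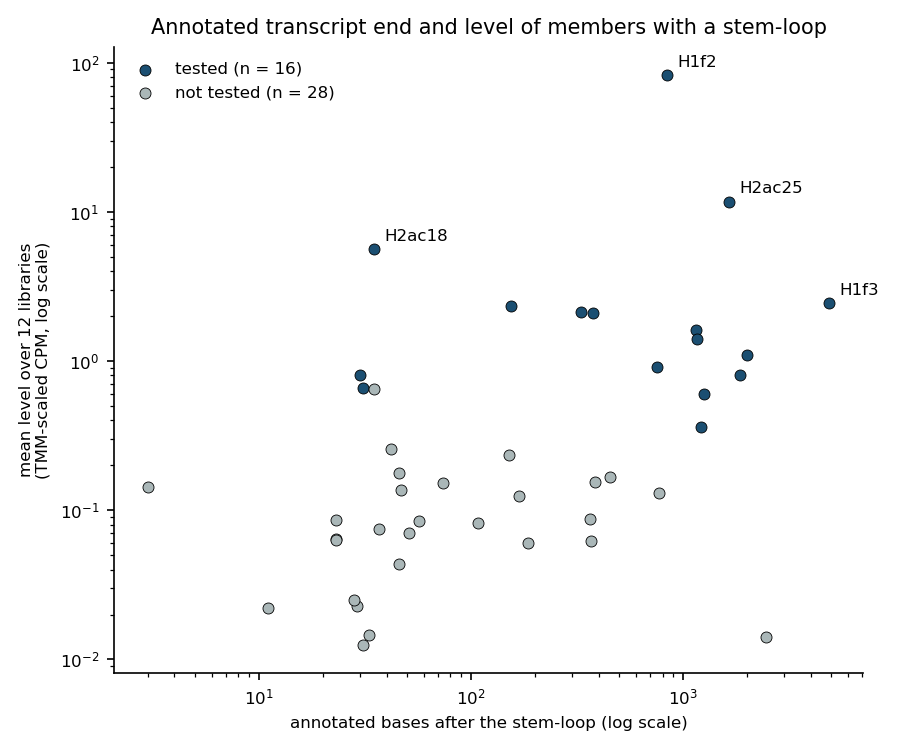
Mean level over the 12 libraries (TMM-scaled CPM, log axis) against the number of annotated bases after the stem-loop (log axis), one point for each of the 44 members with a stem-loop in the longest transcript and at least 1 count. The 16 tested members (dark) lie mostly to the right of 100 bases, with H2ac18 (35 bases), H4c18 (31 bases) and H2bc12 (30 bases) to the left of it, and the members not tested (grey) spread over the whole range. The levels are not divided by length.

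The libraries held 13520906 to 18271985 estimated counts in induced knockdown cells, 18155408 to 18482805 in induced control cells, 18060819 to 18890018 in uninduced knockdown cells and 18556802 to 19068323 in uninduced control cells. A pair of libraries stood apart: induced knockdown replicate 1 was the shallowest and had 1.95% of its counts on mitochondrial genes, and uninduced control replicate 3 had 6.02%, against 2.63% to 3.95% in the other 10. Zfp143 had 14.7, 16.8 and 19.7 CPM in induced knockdown cells, against 19.7, 19.3 and 19.3 in induced control cells, a log2 difference of -0.18 ± 0.18 (SE, adjusted p = 0.646, edgeR quasi-likelihood test). It had 12.2, 11.9 and 10.1 CPM in uninduced knockdown cells, against 23.2, 27.8 and 39.8 in uninduced control cells, a log2 fold change of -1.41 ± 0.18 (adjusted p = 6.12e-05). The targeted mRNA was thus lower before induction, and after 5 days its levels overlapped between the siRNAs. Summed over 5 myotube markers, which include Myh3 and Acta1, the level was 2063 to 2695 CPM in induced knockdown cells, 6084 to 7553 in induced control cells, 3.13 to 3.90 in uninduced knockdown cells and 3.40 to 3.68 in uninduced control cells. Markers of leukocytes, endothelium and adipocytes summed to at most 7.12 CPM in any library, with the leukocyte marker Adgre1 at 0 throughout. Of the epithelial markers Epcam was at 0, and Krt8 carried the sum, which was 2.30 to 3.19 CPM in induced knockdown cells, 8.12 to 8.95 in induced control cells and at most 0.170 in uninduced cells. The fibroblast and smooth muscle list, of which myoblast cultures also express Acta2, summed to 8727 to 10076 CPM in induced knockdown cells, 11894 to 12972 in induced control cells, 617 to 755 in uninduced knockdown cells and 1028 to 1303 in uninduced control cells. In uninduced cells this sum was lower with knockdown, but of its 3 tested markers 2 were called higher and 1 lower (adjusted p under 0.05). Of all tested genes 15.4% were called higher and 17.1% lower there. The myoblast list summed to 891 to 1164 CPM in induced knockdown cells, 1307 to 1678 in induced control cells, 379 to 445 in uninduced knockdown cells and 352 to 399 in uninduced control cells, with Pax7 at 10 counts in all. On induction 3 of its 4 tested markers were called higher with each siRNA, and 1 was called lower with the control siRNA. Of all tested genes 36% were called higher and 30.1% lower with the Zfp143 siRNA, and 33.2% and 30.9% with the control siRNA. The part of these lists in the results below was not tested.

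The members made up 0.0200% to 0.0249% of all counts in induced knockdown cells, 0.0258% to 0.0281% in induced control cells, 0.00448% to 0.00479% in uninduced knockdown cells and 0.00455% to 0.00556% in uninduced control cells. That is 810 to 5187 counts per library for the 68 genes together, so single members are read from few counts. 25 members reached 10 counts in some library, and 20 passed the filter and were tested: 4 H1, 3 H2A, 7 H2B, 3 H3 and 3 H4 genes. These 20 held 97.2% of all member counts. 12 of them would have passed on the uninduced libraries alone, and the other 8 passed only with the help of the induced ones, so a count over the tested members is tilted towards genes high after induction. The 8 are H1f5, H2ac6, H2bc23, H2bc12, H2bc9, H3c14, H3c4 and H4c14. Their values on induction are description and not evidence of a rise. The 48 untested members summed to 6.53 ± 4.99 CPM in induced knockdown cells, 3.68 ± 0.360 in induced control cells, 3.39 ± 0.710 in uninduced knockdown cells and 3.17 ± 1.01 in uninduced control cells (SD, n = 3 each). The induced knockdown value includes 118 counts given to H2ac19 in replicate 1 alone, which is taken up with its near-identical partner H2ac18.

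Levels between genes were compared per length, as the deposited TPM (the share of transcripts after division by length, without TMM factors) averaged within each group, with the near-identical H2ac18 and H2ac19 summed. H1f2, a somatic linker histone, stood first in induced knockdown cells at 177 TPM, in induced control cells at 233 and in uninduced control cells at 31.8. In induced knockdown cells it was followed by the core histone genes H2bc4 at 51.4 and H2ac18 with H2ac19 at 44.4 TPM, and in induced control cells by H2bc4 at 86.9 and H2ac18 with H2ac19 at 47.9 TPM. In uninduced knockdown cells the order was another: H2ac18 with H2ac19 stood first with 23.6 to 33.6 TPM, above H2ac25 with 9.45 to 11.6 and H1f2 with 9.85 to 10.2 TPM, and the last 2 overlapped. In uninduced control cells H2ac18 with H2ac19 was second, at 17.4 TPM. Of the summed member CPM, H1f2 alone was 62.4% in induced knockdown cells, 63.0% in induced control cells, 20.3% in uninduced knockdown cells and 54.1% in uninduced control cells. In uninduced knockdown cells H2ac25 held a larger share, 28.5%.

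The first question the design poses is what the 5 days in low serum did. The histone RNA held in the bead-captured fraction summed to more after induction with both siRNAs, and these counts do not separate tailed from untailed forms. Summed over all 68 members, the level was 224, 191 and 179 CPM in induced knockdown cells and 270.0, 264 and 245 in induced control cells, against 51.6, 47.8 and 50.3 in uninduced knockdown cells and 56.2, 56.4 and 57.0 in uninduced control cells. Every induced library lay above every uninduced library, and the ratio of means was 3.96 with the Zfp143 siRNA and 4.60 with the control siRNA. In these bulk samples a change in the share of cells that carry a message and a change per cell cannot be told apart.

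By histone type, the H1 members summed to 130.0 ± 21.5 CPM in induced knockdown cells, 172 ± 4.02 in induced control cells, 12.1 ± 0.839 in uninduced knockdown cells and 32.1 ± 1.41 in uninduced control cells (SD, n = 3 each). The H2B members summed to 35.9 ± 2.13 CPM in induced knockdown cells, 47.9 ± 4.64 in induced control cells, 8.76 ± 0.522 in uninduced knockdown cells and 6.68 ± 0.261 in uninduced control cells. These types carried the largest ratios of induced to uninduced cells. For H1 they were 10.8 with the Zfp143 siRNA and 5.37 with the control siRNA, and for H2B 4.10 with the Zfp143 siRNA and 7.17 with the control siRNA. The H1 sum is mostly H1f2. Without H1f2 the H1 ratio was 3.38 with the Zfp143 siRNA and 5.60 with the control siRNA, with no overlap in either. The H3 sum was 6.37 ± 1.32 CPM in induced knockdown cells, 8.79 ± 4.11 in induced control cells, 3.41 ± 0.242 in uninduced knockdown cells and 2.48 ± 0.138 in uninduced control cells, and induced and uninduced libraries did not overlap with either siRNA. The H4 sum was 4.09 ± 1.04 CPM in induced knockdown cells and 2.95 ± 0.385 in uninduced knockdown cells, where the libraries overlapped, and 7.32 ± 0.399 in induced control cells against 2.57 ± 0.851 in uninduced control cells, where they did not. The H2A sum was 21.6 ± 1.46 CPM in induced knockdown cells, 23.5 ± 2.18 in induced control cells, 22.7 ± 1.15 in uninduced knockdown cells and 12.6 ± 1.16 in uninduced control cells. The uninduced control libraries were the low ones, and the 3 other groups overlapped on this scale. On the TPM scale, where gene length enters, the H2A ratio of induced to uninduced knockdown cells was 1.48 in place of 0.948 on the CPM scale. There these groups did not overlap, with 65.9 to 72.2 TPM in induced and 41.1 to 54.3 in uninduced knockdown cells, so the H2A result depends on the scale.

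**Figure D2:**
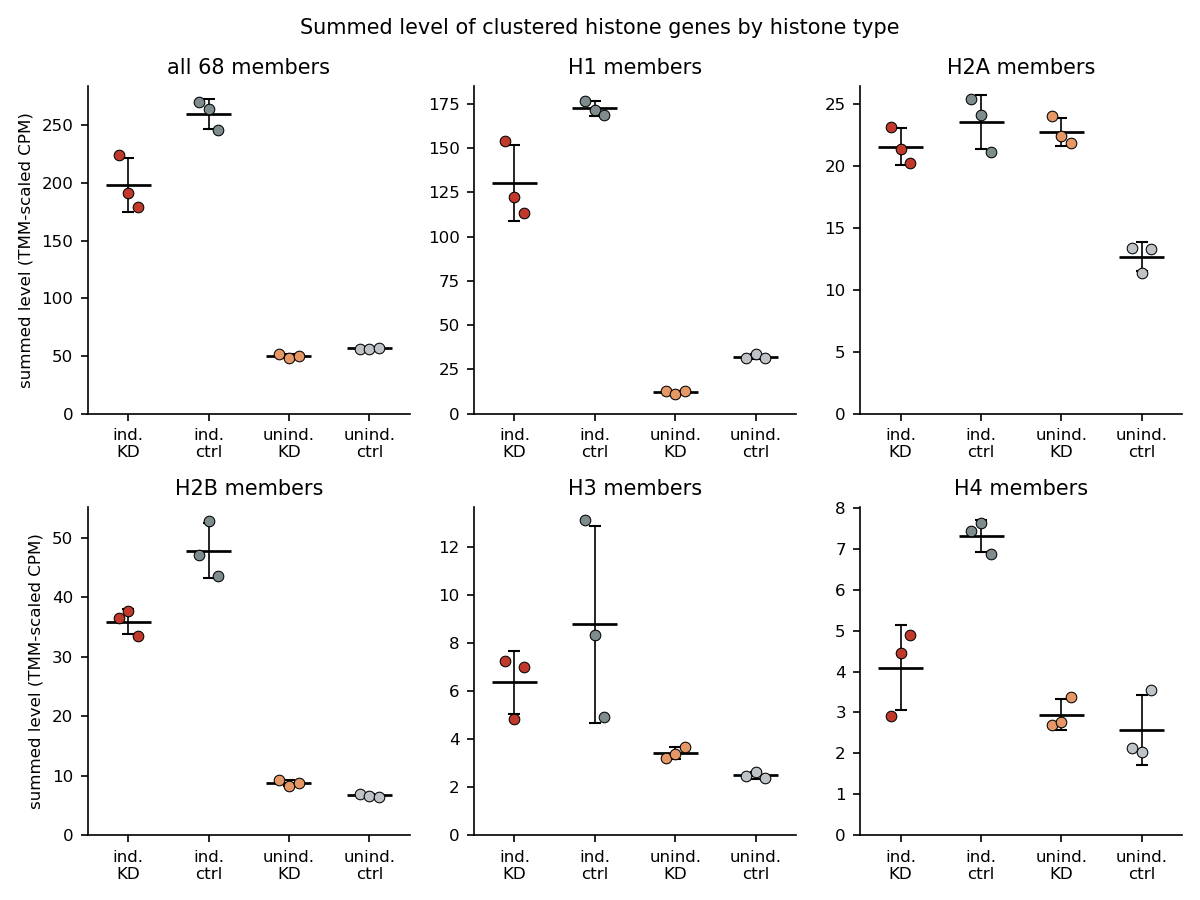
Summed level of the clustered histone genes in TMM-scaled CPM for all 68 members and for each histone type, in induced knockdown (ind. KD), induced control (ind. ctrl), uninduced knockdown (unind. KD) and uninduced control (unind. ctrl) libraries; points are libraries, the bar is the mean and the whiskers are 1 SD (n = 3). H1 and H2B members are low in all uninduced libraries, and for H2A the uninduced control libraries lie below the 3 other groups.

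Gene by gene, 12 of the 20 tested members were called higher and 0 lower after induction with the Zfp143 siRNA (adjusted p under 0.05), where 36% of all 15030 tested genes were called higher and 30.1% lower. With the control siRNA 15 were called higher and 0 lower, where 33.2% of all genes were called higher and 30.9% lower. At an unadjusted p under 0.05 no member was lower either, 13 were higher with the Zfp143 siRNA and 15 with the control siRNA. The 8 tested members that needed the induced libraries to pass the filter are among these counts, which therefore describe the members and do not stand as evidence of a rise. Among the 12 members that pass the filter on uninduced libraries alone, 7 were called higher with the Zfp143 siRNA and 10 with the control siRNA, against 32.2% and 28.4% of the 13298 genes that pass in the same way. None of the 12 was called lower, against 33.9% of those genes with the Zfp143 siRNA and 34.8% with the control siRNA. The median log2 fold change of these 12 was 1.38 with the Zfp143 siRNA and 1.80 with the control siRNA, against -0.04 and -0.09 over those genes. These calls are from edgeR's quasi-likelihood test, and DESeq2 and limma-voom, run on the same filtered genes, also called no member lower. With every gene of at least 1 count tested, 2 members were called lower with the control siRNA. Without both libraries that stood apart, 11 members were called higher with the Zfp143 siRNA and 16 with the control siRNA. Leaving out 1 library at a time ended some calls. With the Zfp143 siRNA, H2bc9 lost its call in 5 of the 12 fits (highest adjusted p = 0.13), H2ac6 in 3 (0.112), H1f5 in 2 (0.0798) and H3c4 in 1 (0.0753). The libraries concerned were uninduced knockdown replicate 1 for H2bc9, H2ac6 and H1f5, uninduced knockdown replicate 2 for H3c4, uninduced knockdown replicate 3 for H2bc9 and H2ac6, induced knockdown replicate 1 for H2bc9 and H1f5, induced knockdown replicate 2 for H2ac6, and induced knockdown replicate 3 and induced control replicate 1 for H2bc9. With the control siRNA, H2bc8 lost its call without uninduced control replicate 1 or 2 or induced control replicate 1 (highest adjusted p = 0.065), and H3c14 in 9 of the 12 fits (highest adjusted p = 0.11), all but those without induced control replicate 3, uninduced knockdown replicate 1 or induced knockdown replicate 1.

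H1f2 had 148, 116 and 107 CPM in induced knockdown cells, against 10.7, 9.56 and 10.2 in uninduced knockdown cells, a log2 fold change of 3.60 ± 0.13 (SE, adjusted p = 1.65e-11). It had 169, 162 and 160.5 CPM in induced control cells, against 29.9, 32.3 and 29.6 in uninduced control cells, a log2 fold change of 2.42 ± 0.13 (adjusted p = 4.66e-10). The lowest of the 6 induced libraries had 107 CPM and the highest of the 6 uninduced libraries 32.3 CPM. H1f3, a linker histone with the longest annotated 3' end of the tested members, had 3.72, 4.50 and 4.35 CPM in induced knockdown cells, against 0.742, 0.827 and 0.509 in uninduced knockdown cells, and rose by 2.59 ± 0.28 log2 units. In induced control cells it had 4.79, 3.58 and 3.78 CPM, against 0.652, 0.933 and 0.788 in uninduced control cells, a rise of 2.35 ± 0.27 log2 units. The H1f3 groups did not overlap in either comparison. H1f4, also a linker histone, had 1.33, 1.24 and 1.25 CPM in induced knockdown cells, against 0.856, 0.472 and 1.58 in uninduced knockdown cells. There the groups overlapped and the difference of 0.38 ± 0.40 was not called (adjusted p = 0.406). With the control siRNA it had 2.65, 4.59 and 3.67 CPM in induced cells, against 0.380, 0.549 and 0.723 in uninduced cells, and rose by 2.72 ± 0.41 log2 units (adjusted p = 2.8e-05). H1f5, a linker histone, had at most 0.731 CPM in any library. Its log2 fold change was 2.28 ± 0.89 with the Zfp143 siRNA (adjusted p = 0.0202) and 0.83 ± 0.80 with the control siRNA (adjusted p = 0.364). The interaction did not pass (adjusted p = 0.4). H1f5 passed the filter only with the induced libraries, so these values are description and not evidence of a rise.

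H2bc4 was the most abundant H2B gene. It had 21.7, 22.2 and 18.2 CPM in induced knockdown cells, against 4.91, 4.31 and 4.12 in uninduced knockdown cells, and rose by 2.21 ± 0.17 log2 units (adjusted p = 4.06e-08). It had 35.7, 41.5 and 34.0 CPM in induced control cells, against 4.24, 3.40 and 2.56 in uninduced control cells, a rise of 3.43 ± 0.18 log2 units (adjusted p = 3.56e-10). The groups lie far apart with either siRNA. H2bc23 rose by 3.43 ± 0.72 with the Zfp143 siRNA and 3.15 ± 0.67 with the control siRNA, H2bc21 by 1.87 ± 0.33 with the Zfp143 siRNA and 1.71 ± 0.35 with the control siRNA and H2bc8 by 1.99 ± 0.39 with the Zfp143 siRNA and 1.16 ± 0.41 with the control siRNA. H2bc23 held at most 0.439 CPM in any library before induction and passed the filter only with the induced libraries. Induced and uninduced libraries of H2bc23, H2bc21 and H2bc8 did not overlap with either siRNA. H2bc12 was called with the control siRNA (3.28 ± 0.95, adjusted p = 0.00278), on 37, 26 and 15 counts in induced control cells against 7, 0 and 0 in uninduced control cells, and leaving out 1 library moved its log2 fold change between 2.70 and 7.62, so its size rests on the 7 counts of uninduced control replicate 1. With the Zfp143 siRNA H2bc12 had 1.54 ± 0.71 and was not called (adjusted p = 0.063), but passed with DESeq2 (0.0456). H2bc12 too passed the filter only with the induced libraries. H2bc9, which passed the filter through the induced knockdown libraries alone, was called with the Zfp143 siRNA (1.46 ± 0.60) and not with the control siRNA. For neither did the interaction, the test of that difference, pass (adjusted p = 0.291 for H2bc12 and 0.806 for H2bc9). H2bc6 did not pass with either siRNA.

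Of the H2A genes, H2ac25 had 13.0, 11.7 and 11.3 CPM in induced knockdown cells, against 13.5, 15.1 and 14.1 in uninduced knockdown cells, a difference of -0.25 ± 0.17 that was not called (adjusted p = 0.213). It had 14.1, 13.8 and 11.0 CPM in induced control cells, against 8.31, 5.54 and 8.93 in uninduced control cells, and rose by 0.77 ± 0.18 log2 units (adjusted p = 0.00141). The uninduced control libraries are the low ones for this gene. H2ac6 had a log2 fold change of 1.22 ± 0.46 with the Zfp143 siRNA (adjusted p = 0.0272) and 3.15 ± 0.56 with the control siRNA (adjusted p = 7.19e-05). Its uninduced libraries held at most 0.886 CPM. Of the H3 genes, H3c4 had 1.16 ± 0.40 with the Zfp143 siRNA and 1.61 ± 0.40 with the control siRNA. H2ac6 and H3c4 passed the filter only with the induced libraries, so these values are description and not evidence of a rise. H3c15 rose by 1.44 ± 0.40 with the Zfp143 siRNA and 1.58 ± 0.38 with the control siRNA. Of the H4 genes, H4c9 had 2.06, 2.72 and 2.65 CPM in induced knockdown cells, against 0.742, 0.886 and 1.36 in uninduced knockdown cells, and rose by 1.32 ± 0.34 log2 units. It had 4.22, 4.22 and 3.57 CPM in induced control cells, against 1.03, 0.604 and 1.64 in uninduced control cells, and rose by 1.88 ± 0.33 log2 units. H4c18 had 0.266, 0.396 and 0.600 CPM in induced knockdown cells, against 0.856, 0.649 and 0.735 in uninduced knockdown cells. There all induced libraries lay below all uninduced ones, and the difference of -0.79 ± 0.50 was not called (adjusted p = 0.171). It had 0.833, 1.63 and 1.36 CPM in induced control cells, against 0.0543, 0.165 and 0.394 in uninduced control cells, and rose by 2.66 ± 0.58 log2 units (adjusted p = 0.000491). H4c14 was not called in any of the 5 comparisons. One of the 15 calls with the control siRNA is H3c14, which also passed the filter only with the induced libraries. It had no count in any uninduced control library and lost its call in 9 of the 12 fits that leave out 1 library.

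**Figure D3:**
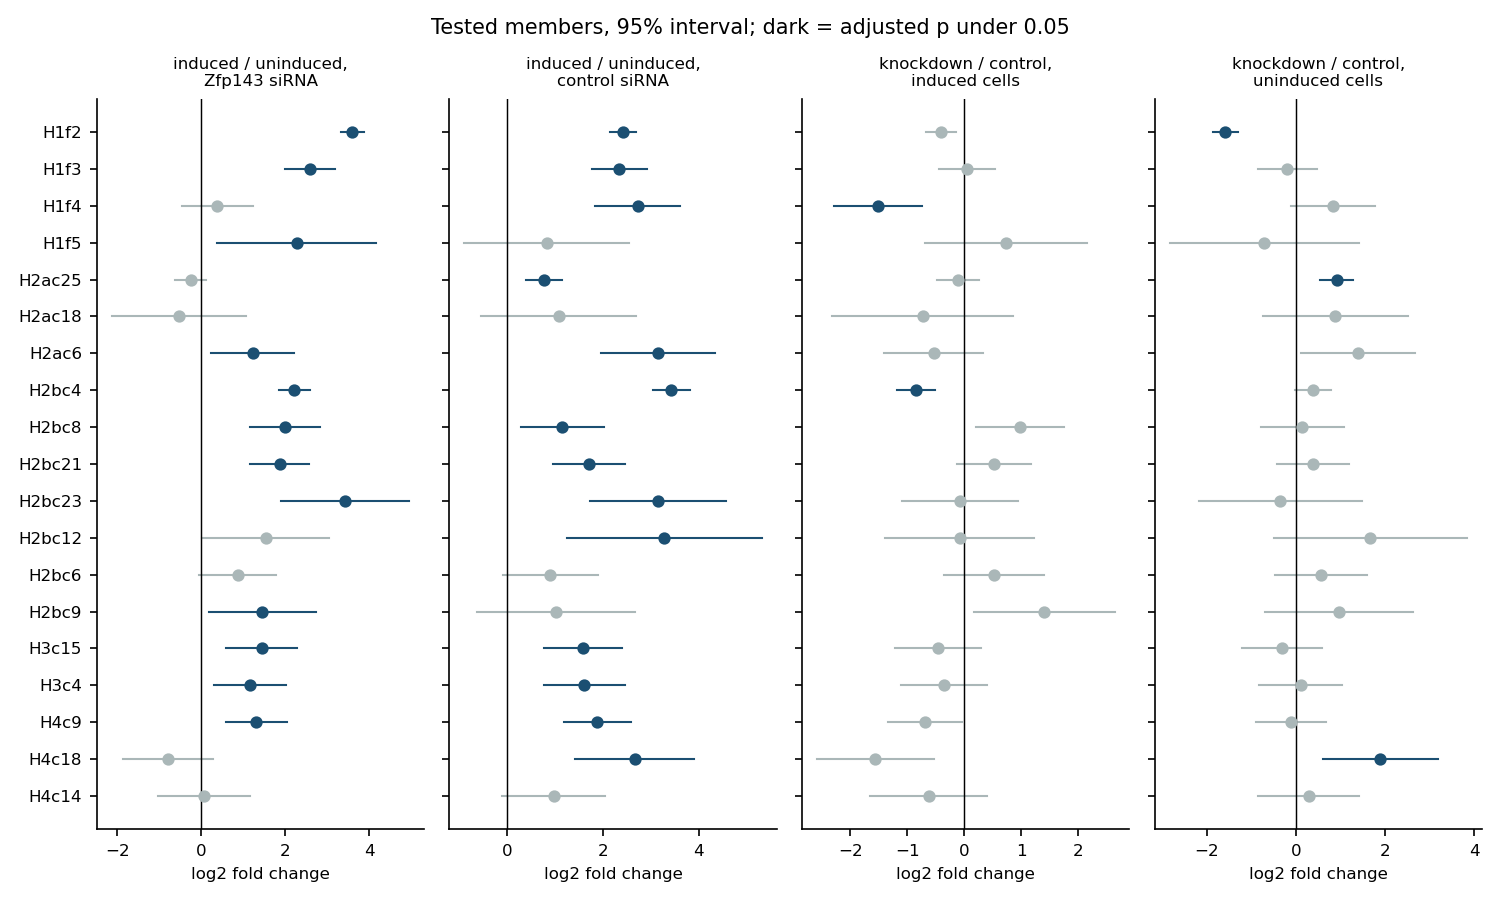
Log2 fold changes with 95% intervals of 19 tested members in 4 comparisons, from left to right induced over uninduced cells with the Zfp143 siRNA and with the control siRNA, and knockdown over control in induced and in uninduced cells; H3c14 is left out because it has no count in a whole group. Dark points have an adjusted p under 0.05; most members lie right of 0 in both induction panels, and H1f2 is the member farthest left in uninduced cells.

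The second question is what the Zfp143 siRNA did before induction. H1f2 fell, H2ac25 and H4c18 rose, and 17 of the 20 tested members did not pass. Thus 2 members were called higher, where 15.4% of all genes were, and 1 lower, where 17.1% were (at an unadjusted p under 0.05, 3 and 1 members). The median log2 fold change of the members was 0.38, against -0.04 over all tested genes. H1f2 had 10.7, 9.56 and 10.2 CPM in uninduced knockdown cells, against 29.9, 32.3 and 29.6 in uninduced control cells. The groups lie far apart with little spread within each, and the log2 fold change was -1.59 ± 0.13 (SE, 95% interval -1.88 to -1.30, adjusted p = 1.16e-06). Per length it had 10.0 TPM in uninduced knockdown cells and 31.8 TPM in uninduced control cells on average.

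H2ac25 had 13.5, 15.1 and 14.1 CPM in uninduced knockdown cells, against 8.31, 5.54 and 8.93 in uninduced control cells, and rose by 0.91 ± 0.18 log2 units (adjusted p = 0.00139). All 3 knockdown libraries lay above all 3 control libraries. In GENCODE M21 H2ac25 shares 708 exonic bases with Trim17 on the same strand, so reads there can be given to either gene. Trim17 itself had 1.20, 2.24 and 2.09 CPM in uninduced knockdown cells, against 1.85, 2.47 and 1.77 in uninduced control cells, with a log2 difference of -0.14 (adjusted p = 0.779). H4c18 had 0.856, 0.649 and 0.735 CPM in uninduced knockdown cells, against 0.0543, 0.165 and 0.394 in uninduced control cells, which is 39 counts against 10 in all. Its rise of 1.90 ± 0.60 log2 units (adjusted p = 0.0188) rests on these few counts and was lost in 3 of the 12 fits that leave out 1 library: adjusted p = 0.0767 without uninduced control replicate 1, 0.0713 without uninduced control replicate 2 and 0.063 without uninduced knockdown replicate 1.

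Over all 68 members the sum was 49.9 ± 1.94 CPM in uninduced knockdown cells and 56.5 ± 0.402 in uninduced control cells, a ratio of 0.884. The H1 sum was 0.376 times that of control cells with no overlap, and this is the fall of H1f2: the 5 other H1 members summed to 1.54 to 2.43 CPM in uninduced knockdown libraries, against 1.36 to 1.77 in uninduced control libraries, which overlapped at a ratio of 1.24. The H2A sum was 1.80 times, the H2B sum 1.31 times and the H3 sum 1.37 times that of control cells, in each case with no overlap between the groups, and the H4 sum 1.15 times, with overlap. In TPM the H2B and H3 sums overlapped too, at 1.20 and 1.09 times. In TPM the ratio of the total was 1.02 and the groups overlapped, so the direction of the total depends on the scale. Small noncoding RNA genes, whose products mostly lack a tail, had 3.54 to 3.98 CPM (by library total) in uninduced knockdown libraries, against 0.753 to 1.62 in uninduced control libraries. In induced cells they had 0.383 to 1.26 with the Zfp143 siRNA and 0.271 to 1.04 with the control siRNA. A list of named RNAs without a tail, which includes Rn7sk and Rmrp, overlapped between the same groups, with 5.56 to 5.87 CPM by library total in uninduced knockdown libraries, against 3.71 to 8.34 in uninduced control libraries, and in induced cells with 3.58 to 5.31 with the Zfp143 siRNA and 2.31 to 17.6 with the control siRNA. The leukocyte list, of which Cd68 passed the filter, Ptprc had 12 counts in all and Adgre1 none, summed to 4.55 to 7.12 CPM in uninduced knockdown libraries, against 0.878 to 1.85 in uninduced control libraries. The part of untailed RNA and of this list in the uninduced comparison was not tested. Without uninduced control replicate 3 and induced knockdown replicate 1, the libraries that stood apart, 3 members were called higher and 1 lower. H1f2 kept its call in each of the 12 fits that leave out 1 library, with log2 fold changes of -1.63 to -1.55, and so did H2ac25, with 0.72 to 1.04.

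**Figure D4:**
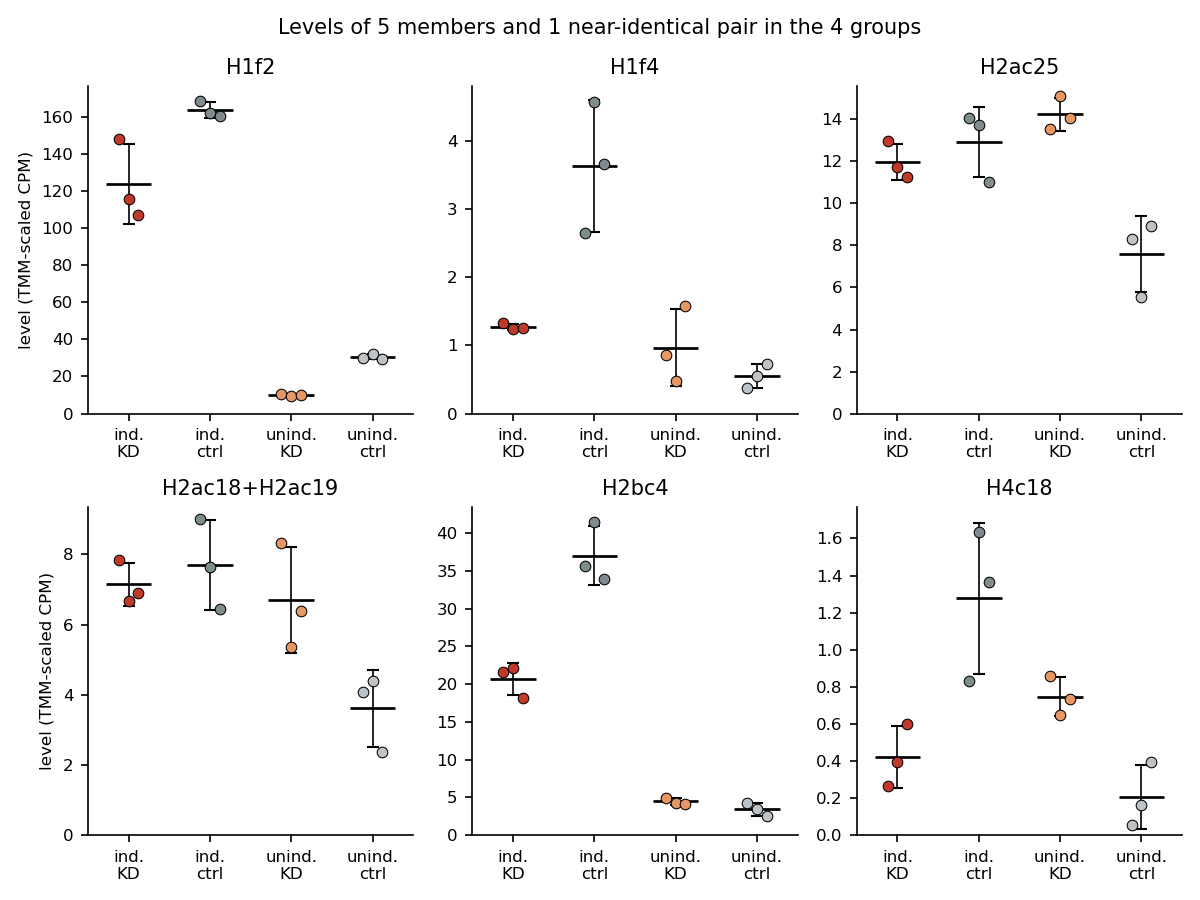
Levels in TMM-scaled CPM of H1f2, H1f4, H2ac25, the sum of H2ac18 and H2ac19, H2bc4 and H4c18 in induced knockdown (ind. KD), induced control (ind. ctrl), uninduced knockdown (unind. KD) and uninduced control (unind. ctrl) libraries; points are libraries, the bar is the mean and the whiskers are 1 SD (n = 3). H1f2 is lowest in uninduced knockdown cells, while H2ac25, H2ac18 with H2ac19, and H4c18 are lowest in uninduced control cells, and H1f4 and H2bc4 are highest in induced control cells.

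The third question is whether the siRNA left a difference after the 5 days, when Zfp143 mRNA overlapped between the groups. H2bc4 and H1f4 fell, and 18 of the 20 tested members did not pass. Thus 0 members were called higher, where 3.73% of all genes were, and 2 lower, where 5.77% were. At an unadjusted p under 0.05 there were 2 members higher and 5 lower, and DESeq2 and limma-voom called 0 higher and 4 lower. Without both libraries that stood apart, or without uninduced control replicate 3 alone, 4 members were lower, and without induced control replicate 2, or induced knockdown replicate 2 or 3, 1 was. The median log2 fold change of the members was -0.38, against -0.03 over all tested genes. H2bc4 had 21.7, 22.2 and 18.2 CPM in induced knockdown cells, against 35.7, 41.5 and 34.0 in induced control cells. The groups did not overlap and the log2 fold change was -0.84 ± 0.16 (SE, 95% interval -1.18 to -0.51, adjusted p = 0.00231). The call held in each of the 12 fits that leave out 1 library, with values of -0.90 to -0.75.

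H1f4 had 1.33, 1.24 and 1.25 CPM in induced knockdown cells, against 2.65, 4.59 and 3.67 in induced control cells, and fell by 1.51 ± 0.36 log2 units (adjusted p = 0.0134). The knockdown libraries were alike and all lay below the control libraries, which varied more. The call was lost without induced control replicate 2 (adjusted p = 0.084), without induced knockdown replicate 2 (0.0579) and without induced knockdown replicate 3 (0.0525). H1f4 and H2bc6 share 450 exonic bases on the same strand in GENCODE M21, so reads there can go to either; H2bc6 had 1.53, 1.24 and 0.951 CPM in induced knockdown cells, against 0.937, 0.949 and 0.682 in induced control cells, and was not called (adjusted p = 0.548).

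H1f2 missed the threshold in the same comparison. It had 148, 116 and 107 CPM in induced knockdown cells, against 169, 162 and 160.5 in induced control cells, a log2 difference of -0.41 ± 0.12 (95% interval -0.67 to -0.14, adjusted p = 0.0518). All knockdown libraries were below all control libraries, and replicate 1 was the nearest to them. Without induced knockdown replicate 1, the shallow library, the value was -0.55 and passed (adjusted p = 0.00328), and it also passed with DESeq2 (adjusted p = 0.0187), with limma-voom (0.0356) and with a transcript length offset (0.00213). H4c18, at 0.266, 0.396 and 0.600 CPM in induced knockdown cells against 0.833, 1.63 and 1.36 in induced control cells, also missed the threshold with edgeR, and both genes passed without uninduced control replicate 3 (adjusted p = 0.0238 for H1f2 and 0.0278 for H4c18), H4c18 also without replicate 1 of that group (0.0391). With all libraries the log2 difference of H4c18 was -1.56 ± 0.48 (adjusted p = 0.0505). Of the 20 tested members 4 were higher in every induced knockdown library than in any induced control library, where 12.3% of all tested genes were, and 6 were lower, where 16.7% were. The 6 are H2bc4, H1f4, H1f2, H4c18, H4c9 and H3c4. H4c9, at -0.68 ± 0.30 (adjusted p = 0.213), and H3c4, at -0.35 ± 0.35 (adjusted p = 0.65), were not called. The 4 are H2bc8, H2bc21, H2bc9 and H2bc6, and none was called (adjusted p = 0.122 for H2bc8, 0.368 for H2bc21, 0.161 for H2bc9 and 0.548 for H2bc6). H2bc9 passed the filter only through the induced knockdown libraries, which favours its place among the 4. H2bc8 did pass with only the compared groups fitted (adjusted p = 0.00645), with no filter (0.04) and without uninduced knockdown replicate 2 (0.0124). For H2bc8 the values were 4.32, 4.70 and 5.15 CPM in induced knockdown cells, against 2.55, 2.32 and 2.31 in induced control cells.

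Summed over all members, induced knockdown cells held 0.761 times the level of induced control cells, and the libraries did not overlap. The ratio was 0.754 for H1, 0.750 for H2B and 0.559 for H4, with no overlap. It was 0.916 for H2A and 0.724 for H3, where the libraries overlapped. The H2B fall is that of H2bc4, with a mean of 20.7 CPM in induced knockdown cells and 37.1 in induced control cells. The median log2 fold change of the 7 tested H2B members was 0.52. H2bc8, H2bc21, H2bc9 and H2bc6 were higher in every induced knockdown library than in any induced control library, and H2bc23 and H2bc12 overlapped. All 5 myotube markers were lower in induced knockdown cells, Myh3 by a log2 fold change of -1.56 ± 0.18 (adjusted p = 4.23e-05), and 15 of 20 S phase genes were higher. The part of these shifts in the histone values was not tested.

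The fourth comparison asks whether the knockdown difference itself changed with induction, as the knockdown log2 fold change in induced cells minus that in uninduced cells. Of the 20 tested members 1 was called higher, where 10.6% of all genes were, and 4 lower, where 11.8% were. At an unadjusted p under 0.05 these were 1 and 5 members. The member called higher is H1f2, with -0.41 ± 0.12 in induced cells and -1.59 ± 0.13 in uninduced cells and a difference of 1.18 ± 0.18 (adjusted p = 0.000353). H2bc4 had -0.84 ± 0.16 in induced cells and 0.38 ± 0.19 in uninduced cells, a difference of -1.22 ± 0.25 (adjusted p = 0.00282). H2ac25 had -0.11 ± 0.17 in induced cells and 0.91 ± 0.18 in uninduced cells, a difference of -1.02 ± 0.25 (adjusted p = 0.00836). H1f4 differed by -2.34 ± 0.57 (adjusted p = 0.00835) and H4c18 by -3.45 ± 0.77 (adjusted p = 0.00386), and for both the sign was positive in uninduced cells and negative in induced cells. All 5 calls held in each of the 12 fits that leave out 1 library. The same test says that the log2 fold change of H1f2 on induction was higher with the Zfp143 siRNA than with the control siRNA, and that those of H2bc4, H1f4, H2ac25 and H4c18 were lower.

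Several histone genes are near-identical copies, and a read can be given to the wrong one. H2ac18 and H2ac19 lie close together on chromosome 3 with opposite strands. In 11 libraries all reads of the pair went to H2ac18, and in induced knockdown replicate 1 all 118 went to H2ac19. Neither gene can therefore be read alone. The sum of the pair was 7.84, 6.68 and 6.91 CPM in induced knockdown cells, 9.00, 7.64 and 6.45 in induced control cells, 8.33, 5.37 and 6.39 in uninduced knockdown cells and 4.08, 4.39 and 2.36 in uninduced control cells. The uninduced control libraries were lowest, as for H2ac25. With the rows merged, an alternative chosen after seeing the data, the pair was called higher in uninduced knockdown cells (0.88 ± 0.24, adjusted p = 0.0111) and higher on induction with the control siRNA (1.08 ± 0.24, adjusted p = 0.000959). It was not called on induction with the Zfp143 siRNA (0.09 ± 0.23, adjusted p = 0.743), and the interaction was -0.99 ± 0.33 (adjusted p = 0.0415). In the fit of single rows H2ac18 passed in no comparison.

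H3c14 and H3c15 form another such pair. Together they had 4.38, 2.77 and 5.10 CPM in induced knockdown cells, 11.5, 6.38 and 2.73 in induced control cells, 1.14, 2.48 and 2.03 in uninduced knockdown cells and 1.25, 1.54 and 0.788 in uninduced control cells. The induced control libraries spread most, and their lowest lies below the highest induced knockdown library. Merged, the pair rose on induction by 1.11 ± 0.45 log2 units with the Zfp143 siRNA (adjusted p = 0.0402) and by 2.51 ± 0.47 with the control siRNA (adjusted p = 0.000243), and it passed in no knockdown comparison. 24 of the 68 members overlap exons of another gene in GENCODE M21, 21 of them a gene on the opposite strand. For most of these 21 the only such gene is an annotated miRNA, which shares 129 to 144 bases. H2ac18, H2ac19, H2ac21, H2bc18, H3c13 and H4c2 overlap a gene annotated as antisense. Since the kit does not keep strand, reads from an antisense partner cannot be told apart. H2ac18 lies within the exons of the antisense gene Gm20633. On the same strand Gm20634 shares 1825 exonic bases with H3c14 and 529 with H2ac18, so reads there can be given to either gene. Merging the paired rows does not remove this, and its part in the H3c14 and H2ac18 counts was not tested.

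The deposited effective length of a gene in a library moves when reads shift between its annotated transcripts or when fragment sizes differ. Relative to each gene's own mean, the effective lengths of the tested members stayed between 0.861 and 1.08 in 11 libraries and reached 1.54 in induced knockdown replicate 1. 63 of the 68 members have a single annotated transcript in GENCODE M21, so a stem-loop end and a tailed end of these genes are not separate rows and cannot be told apart here.

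Promoters were read from RefSeq (GRCm38.p6) as the 250 bases before each annotated start, for 62 of the 68 members. They are shown for the members called in a knockdown comparison that matched, because the study's siRNA targets a factor that binds promoters. H2bc4 was also called in such a comparison, but it had no matched promoter and was not searched. Capitals mark matches to the searched letters on either strand:
H1f2, chr13:23738557-23738806 (+ strand): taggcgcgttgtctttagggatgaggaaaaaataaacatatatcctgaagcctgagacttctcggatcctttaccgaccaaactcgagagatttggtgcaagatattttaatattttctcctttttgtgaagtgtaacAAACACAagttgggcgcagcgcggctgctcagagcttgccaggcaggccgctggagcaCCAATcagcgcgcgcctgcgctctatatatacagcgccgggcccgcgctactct
H1f4, chr13:23622559-23622808 (- strand): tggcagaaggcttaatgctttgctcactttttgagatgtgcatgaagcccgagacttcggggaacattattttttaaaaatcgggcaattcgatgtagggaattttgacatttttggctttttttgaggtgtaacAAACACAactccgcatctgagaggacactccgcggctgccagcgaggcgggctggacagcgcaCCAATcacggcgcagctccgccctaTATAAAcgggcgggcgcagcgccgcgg
H2ac25, chr11:58954435-58954684 (+ strand): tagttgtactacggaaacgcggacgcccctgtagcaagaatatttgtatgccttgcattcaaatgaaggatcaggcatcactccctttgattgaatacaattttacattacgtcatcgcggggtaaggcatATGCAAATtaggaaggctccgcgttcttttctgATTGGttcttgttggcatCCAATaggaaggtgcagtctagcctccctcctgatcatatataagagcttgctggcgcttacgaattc
H4c18, chr13:21832198-21832447 (- strand): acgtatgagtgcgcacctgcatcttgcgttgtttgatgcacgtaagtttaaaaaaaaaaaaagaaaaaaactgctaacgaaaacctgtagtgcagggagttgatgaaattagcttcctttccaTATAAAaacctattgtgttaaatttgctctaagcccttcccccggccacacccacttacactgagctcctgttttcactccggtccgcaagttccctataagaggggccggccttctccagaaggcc
The H1f2 and H1f4 promoters both hold AAACACA, the H1 box, 112 and 115 bases before the start, and CCAAT, the letters bound by NF-Y, 54 and 52 bases before it. H1f4 also has TATAAA 27 bases before the start. The H2ac25 promoter holds CCAAT on each strand, 68 and 86 bases before the start, and the octamer ATTTGCAT on the reverse strand 119 bases before it. The H4c18 promoter holds TATAAA 127 bases before the start and no other searched letters.

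Over the 62 member promoters CCAAT was found in 82.3%, against 34.5% of all 27025 promoters in the table, TATAAA in 46.8% against 13.0%, ATTTGCAT in 21.0% against 1.61% and AAACACA in 14.5% against 6.22%. These shares differ by type: all H1, H2A and H2B promoters held CCAAT but 25.0% of H4 promoters did, 38.9% of H2A and 37.5% of H2B promoters held the octamer and no others did, and 5 of 6 H1 promoters held the H1 box. Overlap between motifs was allowed and both strands were searched. ACTACAA, which is only a part of the known ZNF143 site, was in 0 of 62 member promoters and in 2.98% of all promoters. The other letters of that site were not searched, so this is not a count of ZNF143 sites. A match is a description of letters and not a bound site, and the lack of one says nothing about binding.

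Of 4 lists of genes around histone supply, the S phase, histone mRNA and chaperone lists had more genes called lower than higher after induction with both siRNAs, and the replication-independent histones had more lower with the control siRNA and more higher with the Zfp143 siRNA. The counts are to be read against all tested genes: 36% were higher and 30.1% lower on induction with the Zfp143 siRNA, 33.2% and 30.9% with the control siRNA, 3.73% and 5.77% by knockdown in induced cells, 15.4% and 17.1% in uninduced cells, and 10.6% and 11.8% in the interaction. These lists were chosen with earlier results of these data known. Of 20 S phase genes, which serve DNA replication, 16 were called lower and 0 higher on induction with the Zfp143 siRNA (median -0.86) and 20 lower with the control siRNA (median -1.55). Mcm2, a subunit of the replicative helicase, fell by 1.45 ± 0.12 log2 units with the Zfp143 siRNA and by 2.42 ± 0.12 with the control siRNA. The list summed to 1026 to 1118 CPM in induced knockdown cells, 648 to 669 in induced control cells, 1915 to 1981 in uninduced knockdown cells and 1719 to 2077 in uninduced control cells. In induced cells 15 of the 20 were higher with the Zfp143 siRNA than with the control siRNA and 0 lower, for example Uhrf1, which keeps DNA methylation through replication, by 1.16 ± 0.12 and Mcm5 by 1.20 ± 0.13. In uninduced cells 3 were higher and 1 lower: Rrm2, a subunit of ribonucleotide reductase, by 0.55 ± 0.12, E2f1, a transcription factor of S phase entry, by 0.65 ± 0.15, Fen1, a nuclease, by 0.46 ± 0.14, and Pola1, of the DNA primase complex, by -1.01 ± 0.22. The interaction was called higher for 11 and lower for 0.

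Of 23 genes for histone mRNA transcription, processing and turnover, 16 were lower and 1 higher on induction with the Zfp143 siRNA and 18 lower and 1 higher with the control siRNA. Slbp fell by 1.20 ± 0.16 log2 units with the Zfp143 siRNA (adjusted p = 9.64e-06) and by 1.12 ± 0.16 with the control siRNA (adjusted p = 1.89e-05). Npat fell by 0.65 ± 0.16 with the Zfp143 siRNA and 0.78 ± 0.16 with the control siRNA, and Hinfp, a transcription factor of H4 genes, fell by 0.52 ± 0.13 with the Zfp143 siRNA and 0.91 ± 0.13 with the control siRNA. Ccne2, a cyclin that drives S phase entry, fell by 2.78 ± 0.24 with the Zfp143 siRNA and 2.61 ± 0.25 with the control siRNA, while Tut7, a uridylyltransferase, rose by 0.55 ± 0.11 with the Zfp143 siRNA and 0.94 ± 0.11 with the control siRNA. In induced cells none of the 23 was called in the knockdown comparison. In uninduced cells 4 were higher and 2 lower, among them Zfp473, which acts in histone mRNA 3' processing, at 1.37 ± 0.43 (adjusted p = 0.0214) and Casp8ap2 at -0.68 ± 0.21 (adjusted p = 0.0213). Slbp, Npat and Hinfp passed in neither knockdown comparison. The interaction was called for 1, Cdk2, at -0.52 ± 0.17.

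Of 21 histone chaperones, which carry histones to DNA, 12 were lower and 5 higher on induction with the Zfp143 siRNA and 14 lower and 1 higher with the control siRNA. Nasp, a chaperone that binds H1 and H3, fell by 1.73 ± 0.18 with the Zfp143 siRNA and 1.88 ± 0.18 with the control siRNA, and Daxx, a chaperone of a replication-independent H3, rose by 1.20 ± 0.15 with the Zfp143 siRNA and 1.04 ± 0.15 with the control siRNA. In induced cells 6 were higher and 0 lower with the Zfp143 siRNA, such as Asf1b at 1.15 ± 0.15, and in uninduced cells 2 were higher and 2 lower, 9.52% each, which is below the share of all genes. The interaction was called higher for 6 and lower for 0.

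Of 11 replication-independent histone genes, which give tailed mRNA through the cell cycle or, as H2ax, both forms, 6 were called higher and 4 lower on induction with the Zfp143 siRNA, and 0 higher and 7 lower with the control siRNA. H1f0, the linker histone of resting cells, rose by 0.87 ± 0.12 with the Zfp143 siRNA and fell by 0.85 ± 0.12 with the control siRNA, with an interaction of 1.72 ± 0.17 (adjusted p = 6.89e-06). In uninduced cells it fell by 1.49 ± 0.12 with the Zfp143 siRNA (adjusted p = 7.89e-07), alongside H1f2. H2az1, a variant of H2A, fell on induction by 1.54 ± 0.22 with the Zfp143 siRNA and by 2.83 ± 0.22 with the control siRNA. In induced cells 3 were higher and 0 lower with the Zfp143 siRNA: Cenpa, the H3 of centromeres, at 1.40 ± 0.15, H2ax at 1.19 ± 0.18 and H1f10, a linker histone, at 0.99 ± 0.23. In uninduced cells 1 was higher and 4 lower, and the interaction was called higher for 6 and lower for 1. The list summed to 2279 to 2689 CPM in induced knockdown cells, 2087 to 2441 in induced control cells, 3184 to 3274 in uninduced knockdown cells and 4107 to 5744 in uninduced control cells.

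**Figure D5:**
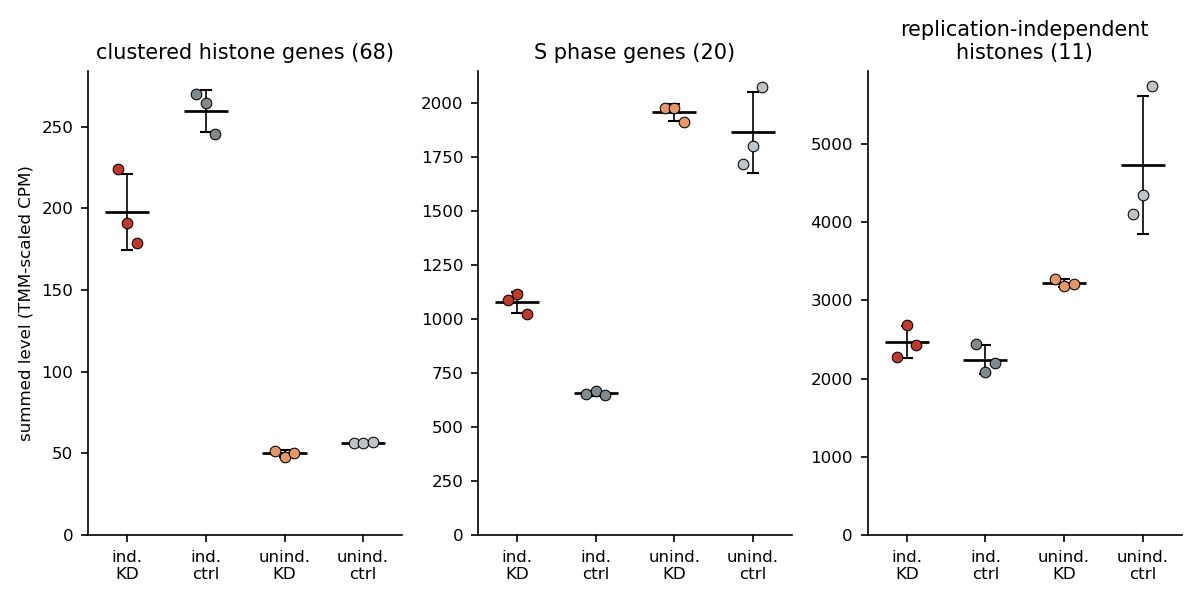
Summed level in TMM-scaled CPM of the 68 clustered histone genes, of 20 S phase genes and of 11 replication-independent histone genes in induced knockdown (ind. KD), induced control (ind. ctrl), uninduced knockdown (unind. KD) and uninduced control (unind. ctrl) libraries; points are libraries, the bar is the mean and the whiskers are 1 SD (n = 3). The clustered members are high in induced libraries, where the S phase genes are low.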

How the data were processed

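Polyadenylated RNA of 12 C2C12 libraries, 4 groups of 3, was sequenced in 1 batch. Per the submitters' processing notes, fastp 1.0.1, STAR 2.7.11b and Salmon (version not given in the sources used here) were used with GRCm39. The deposited data hold estimated counts, TPM, FPKM and effective lengths per gene and library. The deposited TPM columns are recorded as a score because lines that repeat a gene ID lift their sums above the nominal total, and the deposited FPKM values were not used. Up to 7.26% of a library's estimated counts are not whole, and all were rounded. Of 78810 lines 535 repeat others, which leaves 78275 IDs. Column names of induced knockdown replicates 2 and 3 have transposed letters and were matched by their remaining name. Genes passing filterByExpr (minimum count 10, minimum total 15) were tested, 15030 in all, with one joint edgeR model of 4 group means (8 residual degrees of freedom, TMM, robust quasi-likelihood test, Benjamini-Hochberg adjustment over all tested genes, threshold 0.05), whose code was tested on simulated data. Levels are TMM-scaled CPM computed from the rounded counts, log2 fold changes and SEs come from the model, and sums have no test.

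R 4.3.3, edgeR 4.0.16, limma 3.58.1, DESeq2 1.42.0, data.table (version 1.17.8) and statmod 1.5.0 were used. The alternatives were DESeq2, limma-voom, library size scaling, sums of TPM, no filter, a transcript length offset, a replicate block, pseudogenes added, only the compared groups, libraries left out, and merged near-identical rows. The members, gene lists, markers and motifs were chosen with earlier results of these data known. Genes named are Zfp143, Npat, Slbp, Hinfp, the most abundant 4 members of each type (H2ac19, H3c3 and H4c8 were not tested), up to 4 called members per direction and comparison, and up to 3 of each list, and other tested members were named after their values were seen. Members with too few counts are given as numbers of genes.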

Additional observations from a re-analysis of the deposited data

Results flagged for a closer look

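The knockdown difference depended on induction for 5 members by the interaction test of edgeR's quasi-likelihood fit with Benjamini-Hochberg adjustment. H1f2 gave 1.18 (log2, adjusted p = 0.000353), since its knockdown difference was -0.41 in induced cells and -1.59 in uninduced cells. H2bc4 gave -1.22 (adjusted p = 0.00282), with -0.84 in induced cells and 0.38 in uninduced cells. H2ac25 gave -1.02 (adjusted p = 0.00836), with -0.11 in induced cells and 0.91 in uninduced cells. H1f4 gave -2.34 (adjusted p = 0.00835) and H4c18 -3.45 (adjusted p = 0.00386), both from few counts. Induced knockdown libraries had 2063 to 2695 CPM of myotube markers, against 6084 to 7553 in induced control libraries, and the part of this in the 5 values was not tested.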

How the results depend on the processing

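Named members kept their direction under all alternatives tried wherever they were called. In knockdown against control in induced cells, members called lower were 4 in place of 2 with DESeq2, with limma-voom, with a transcript length offset and without both libraries that stood apart, and 1 to 4 when 1 library was left out. Members called higher there were 2 in place of 0 with every gene of at least 1 count tested, 1 with only the compared groups fitted, and 0 to 1 when 1 library was left out. There 560 genes were called higher and 867 lower, 901 to 2014 in all when 1 library was left out and 2525 without both libraries that stood apart. In uninduced cells members called higher were 2, and 1 to 3 when 1 library was left out. On induction with the control siRNA 2 members were called lower, in place of 0, with every gene of at least 1 count tested. The interaction called 1595 genes higher and 1780 lower, 2506 to 4750 in all when 1 library was left out and 5755 without both libraries. The cause was not tested.

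The log2 ratio of the summed members between uninduced knockdown and uninduced control cells was -0.18 in CPM and 0.026 in TPM. On induction it was 1.99 with the Zfp143 siRNA, 2.24 with library size scaling, and 2.20 with the control siRNA, 2.37 in TPM and 2.38 with library size scaling. Correlations of same-numbered deviations ran from -0.0963 to 0.306, and those of different numbers from -0.279 to 0.249. These ranges overlap and do not settle whether replicate numbers pair the libraries. With the replicate block 3 members were higher and 1 lower by knockdown in uninduced cells, 0 and 3 in induced cells, 13 higher on induction with the Zfp143 siRNA, 14 with the control siRNA, and 1 higher and 5 lower in the interaction. It brought in H1f2 in induced cells (-0.42, adjusted p = 0.0368), H2ac6 in uninduced cells (0.0485) and in the interaction (0.0378) and H2bc12 on induction with the Zfp143 siRNA (0.0499), and lost H3c14 with the control siRNA (0.135). Pseudogene rows added 0 to 3 counts. With at most 5187 member counts per library, members that did not pass the filter were tested only without it, where 64 members had a count.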
